A study of Homo sapiens with 8 samples.

Results

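The proteins that transcribe the mitochondrial genome and that cut, protect and degrade its RNA are encoded in the nucleus, and 10 of their genes were followed here in human keratinocytes with and without acute poisoning of the respiratory chain. The genes were taken by symbol from the deposited table of 61806 genes: the mitochondrial RNA polymerase POLRMT with its initiation factors TFAM and TFB2M, the messenger RNA stabilisers LRPPRC and SLIRP, the tRNA excision enzymes ELAC2, TRMT10C and HSD17B10, and the degradation enzymes SUPV3L1 and PNPT1. All 10 had 1 entry each, and all 10 were expressed highly enough to be tested. The cells were wild-type N/TERT-1, an immortalized line of epidermal keratinocytes, in 4 libraries treated with ethanol, the solvent, and 4 treated with O/A. O/A joins oligomycin, an inhibitor of the ATP synthase, with antimycin A, an inhibitor of complex III. RNA was taken after 4 hours of treatment in 4 independent experiments, and the doses used for these libraries are not given in the sources used here. All libraries share 1 cell line and 1 time, so the values describe this line at this time.

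Both strands of human mitochondrial DNA are transcribed as long polycistronic RNAs. POLRMT is recruited to promoters by TFAM, which bends and packages the DNA, and TFB2M opens the promoter for it. Most messenger and ribosomal RNAs are flanked by tRNAs, and cutting the tRNAs out releases them: RNase P, made of TRMT10C, HSD17B10 and PRORP, cuts the 5′ end and ELAC2 the 3′ end. LRPPRC bound to SLIRP then protects the messenger RNAs, and the helicase SUPV3L1 with the nuclease PNPT1 degrades surplus and antisense RNA.

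Total counts per library were 17210404 to 20999927 in ethanol and 17689760 to 19263046 in O/A, and the 10 genes together took 10521 to 14677 of them. Of the 6 basal keratinocyte markers checked, all were present in every library. Their summed FPKM (fragments per kilobase of exonic size, scaled to the library total) was 3143 to 3398 in ethanol and 2835 to 2988 in O/A. By the call rule given below, KRT5, a basal keratin, fell (log2 fold change -0.30) and the other 5 were not called, with LAMB3 (0.24) and ITGA6 (0.14) higher in every O/A library than in any ethanol library. The 6 fibroblast markers summed to 2.42 to 2.95 FPKM in ethanol and 2.46 to 2.70 in O/A, nearly all of it COL1A1, with COL1A2 at 0 or 1 count. The 6 melanocyte markers summed to at most 0.66 FPKM with MLANA and TYR at 0, and the leukocyte markers to 0.40 to 0.59 FPKM in ethanol and 0.65 to 0.88 in O/A, with PTPRC at 0 or 1 count and CD68 called higher (log2 fold change 0.56). The part of these marker shifts in the values below was not tested. In bulk RNA, fewer cells of a kind and less RNA per cell cannot be told apart.

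After O/A, 4 of the 10 genes fell: 2 of the 3 for transcription and 2 of the 3 for tRNA excision. Of the 4 genes for RNA protection and degradation, edgeR called 0, and 0 had an unadjusted p of at most 0.05, which 57.9% of all genes tested had. TRMT10C and POLRMT fell most, to 0.47 and 0.52 of their ethanol levels. ELAC2 fell to 0.71 and TFB2M to 0.81. LRPPRC, SLIRP, HSD17B10, SUPV3L1 and PNPT1 did not pass the test, with fold changes between 0.94 and 0.98, and TFAM lay between, at 0.92. Under other scalings or tests an adjusted p of at most 0.05 was reached by SLIRP, HSD17B10 and PNPT1 in 3 of 16 alternatives each and by LRPPRC in 1, with log2 fold changes within the threshold. A gene was called when edgeR's quasi-likelihood test gave an adjusted p of at most 0.05 over the 14893 genes tested and the absolute log2 fold change was above 0.25. By this rule 4 were called lower in O/A and 0 higher, where 34.7% of all genes tested were called in either direction, 18.9% lower and 15.8% higher. Of the 6 not called, TFAM alone had an adjusted p of at most 0.05, which 53.7% of all genes tested had. DESeq2 also called 4 lower and 0 higher, and all 10 log2 fold changes were negative, as were 50.1% of those of all genes tested. The median log2 fold change was -0.11 over the 10 genes and -0.00040 over all genes tested, whose middle 50% lay between -0.22 and 0.19. The 10 genes were chosen with earlier results of these data known, and the part of this choice in the counts was not tested.

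**Figure D1:**
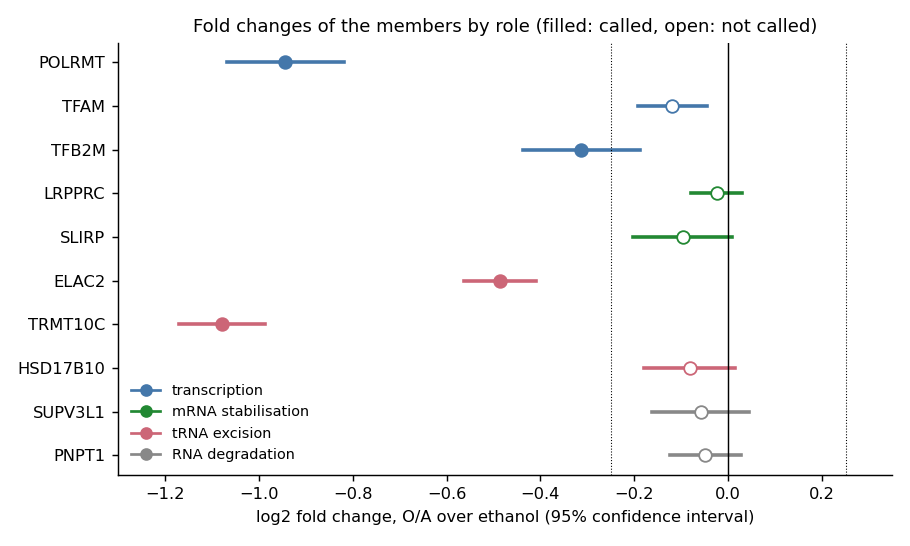
Log2 fold change of each of the 10 genes, O/A over ethanol, on the horizontal axis, with its 95% confidence interval as a line, coloured by role; filled points were called, and dotted lines mark the threshold of 0.25 in each direction. TRMT10C (-1.08), POLRMT (-0.94), ELAC2 (-0.49) and TFB2M (-0.31) lie beyond the threshold, and the other 6 lie between -0.12 and -0.02.

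The stretches of DNA just upstream of the 4 called genes are shown because these are the genes called lower. Each is the 250 bases before the RefSeq transcription start in GRCh38.p14, read 5′ to 3′ in the direction of the gene: POLRMT at chr19:633538-633787 and TFB2M at chr1:246566262-246566511 and ELAC2 at chr17:13018028-13018277, all on the minus strand, and TRMT10C at chr3:101561618-101561867 on the plus strand. Capitals mark the searched motifs, on either strand, and some of them overlap.
POLRMT: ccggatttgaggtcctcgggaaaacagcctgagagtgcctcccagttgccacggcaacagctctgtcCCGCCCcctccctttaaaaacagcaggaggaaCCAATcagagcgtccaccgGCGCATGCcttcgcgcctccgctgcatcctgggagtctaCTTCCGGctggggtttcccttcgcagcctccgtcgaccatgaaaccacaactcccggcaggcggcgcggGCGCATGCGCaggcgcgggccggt
TFB2M: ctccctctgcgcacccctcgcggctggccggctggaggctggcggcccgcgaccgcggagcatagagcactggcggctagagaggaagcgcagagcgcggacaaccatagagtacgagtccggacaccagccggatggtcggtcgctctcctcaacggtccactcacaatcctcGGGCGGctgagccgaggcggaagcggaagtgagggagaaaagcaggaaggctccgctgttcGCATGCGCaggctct
ELAC2: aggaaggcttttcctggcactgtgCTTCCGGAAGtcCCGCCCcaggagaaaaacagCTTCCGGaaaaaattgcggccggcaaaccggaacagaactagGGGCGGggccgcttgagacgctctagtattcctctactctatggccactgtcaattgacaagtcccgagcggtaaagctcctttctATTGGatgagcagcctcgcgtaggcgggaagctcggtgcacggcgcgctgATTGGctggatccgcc
TRMT10C: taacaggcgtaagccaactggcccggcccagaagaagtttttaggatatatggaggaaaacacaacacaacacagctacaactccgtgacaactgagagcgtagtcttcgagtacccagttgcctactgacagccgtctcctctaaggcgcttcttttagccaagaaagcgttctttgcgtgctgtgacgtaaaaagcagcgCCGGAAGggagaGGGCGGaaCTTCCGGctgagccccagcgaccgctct

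The motifs searched on both strands were the core of the NRF-1 site (GCATGCGC), the ETS core (CCGGAAG) bound by GABPA, the SP1 box (GGGCGG), the NF-Y box (CCAAT), the E-box (CACGTG), the YY1 core (AAGATGG) and the C/EBP-ATF elements TGATGCAA and TGATGAAA. NRF-1 and GABPA are textbook activators of nuclear genes for mitochondrial proteins. The NRF-1 core stood in the windows of 2 of the 10 genes, POLRMT and TFB2M, and in 4.10% of the 15453 windows of genes tested here (2.63% of all 35116 windows). In POLRMT it occurred 3 times, 22, 24 and 132 bases before the start, the nearer pair overlapping on opposite strands, and in TFB2M 15 bases before it. The ETS core stood in 4 of 10, POLRMT, ELAC2, TRMT10C and SLIRP, and in 14.1% of tested-gene windows (8.52% of all). TRMT10C held it 48 and 28 bases before the start, on either side of an SP1 box. The SP1 box was found in 7 of 10 and 62.5% of tested-gene windows (42.6% of all), and the NF-Y box in 7 of 10 and 33% (32% of all). The YY1 core was found in LRPPRC and SLIRP and in 3.57% of tested-gene windows (3.70% of all). The E-box was in 0 of 10 (8.0% and 6.34%), and so were TGATGCAA (0.472% and 0.772%) and TGATGAAA (0.472% and 0.931%). The shares are per window, over 15453 windows of 10688 tested genes, while each of the 10 counted once if any of its windows held the motif. SLIRP and HSD17B10 had more than 1 window, so the units are not quite alike. A match describes letters in a window and not a bound site.

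POLRMT, the polymerase itself (ENSG00000099821, GRCh38 chromosome 19 from 617221 to 633537), had 30.1, 29.5, 28.2 and 27.5 TMM-scaled CPM (counts divided by the library total after TMM correction, on the usual CPM scale) in ethanol replicates 1 to 4. In O/A replicates 1 to 4 it had 15.6, 15.1, 14.9 and 14.3 CPM. The lowest ethanol library was thus far above the highest O/A library. The log2 fold change was -0.94 with a standard error of 0.062 (edgeR's quasi-likelihood test, adjusted p = 1.01e-18), a fall by 48.0%, and 3.18% of all genes tested had a lower log2 fold change. Between 495 and 585 counts stood behind each ethanol value and between 248 and 282 behind each O/A value. The named pseudogene POLRMTP1 held 2 to 10 counts per library, 1.08% of the reads on POLRMT.

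TFB2M, the promoter-opening factor (ENSG00000162851, chromosome 1 from 246540561 to 246566261), had 30.1, 29.2, 29.9 and 24.7 CPM in ethanol replicates 1 to 4. In O/A it had 21.6, 24.1, 22.0 and 23.7 CPM. The groups did not overlap, but ethanol replicate 4 came close to the O/A libraries. The log2 fold change was -0.31 with a standard error of 0.062 (edgeR, adjusted p = 2.64e-05) and was -0.38 without ethanol replicate 4. TFAM, the DNA-bending and packaging factor (ENSG00000108064, chromosome 10 from 58385345 to 58399220), had 85.1, 80.1, 83.0 and 80.2 CPM in ethanol and 76.2, 76.2, 77.3 and 72.6 CPM in O/A. Its groups did not overlap either, and the log2 fold change of -0.12 (95% confidence interval -0.19 to -0.05, adjusted p = 0.00487 from the same test) was within the fold threshold. Of these 3 transcription genes, TFAM thus differed least between conditions.

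**Figure D2:**
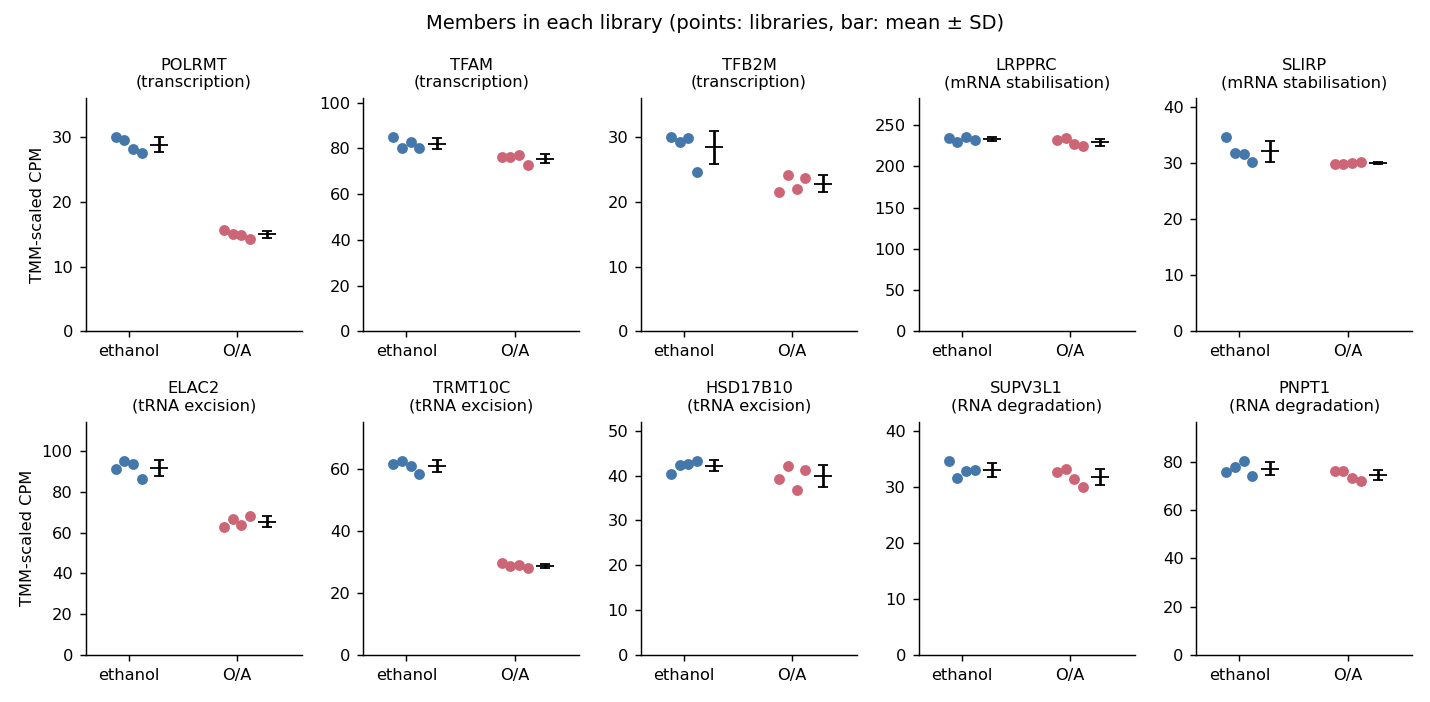
TMM-scaled CPM of each gene (vertical axes, from 0) in the 4 ethanol and 4 O/A libraries, with 1 point per library and the mean ± SD beside them. POLRMT, TFAM, TFB2M, ELAC2 and TRMT10C have every O/A library below every ethanol library, and the groups overlap for the other 5.

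TRMT10C, the methyltransferase subunit of RNase P (ENSG00000174173, chromosome 3 from 101561868 to 101566446), had 61.6, 62.8, 61.1 and 58.4 CPM in ethanol replicates 1 to 4. In O/A it had 29.6, 28.7, 29.0 and 28.1 CPM. The spread within a condition was small beside the gap between them. The log2 fold change was -1.08 with a standard error of 0.046 (edgeR's quasi-likelihood test, adjusted p = 1.99e-26), a fall by 52.6%, and 2.28% of genes tested had a lower value. ELAC2, the enzyme that cuts the 3′ end of the tRNA (ENSG00000006744, chromosome 17 from 12991612 to 13018065), had 91.4, 95.4, 93.8 and 86.5 CPM in ethanol and 62.8, 66.8, 63.6 and 68.3 CPM in O/A. Every O/A library was below every ethanol library, and the log2 fold change was -0.49 with a standard error of 0.038 (edgeR, adjusted p = 8.01e-16).

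HSD17B10, a dehydrogenase that is also the scaffold subunit of RNase P (ENSG00000072506, chromosome X from 53431258 to 53434370), was not called. It had 40.4, 42.4, 42.5 and 43.3 CPM in ethanol and 39.1, 42.2, 36.8 and 41.3 CPM in O/A, so that the groups overlapped. The log2 fold change was -0.08 (95% confidence interval -0.18 to 0.01, adjusted p = 0.147 from the same test). PRORP, the nuclease subunit of RNase P, is named for that role after its value was seen. Its ethanol libraries held 190 to 268 counts and its O/A libraries 166 to 176, with a log2 fold change of -0.30 (adjusted p = 0.0031 from the same test) that came within the threshold, at -0.20, under quantile normalization and on log2(FPKM + 1).

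LRPPRC, an RNA-binding protein of the pentatricopeptide repeat family (ENSG00000138095, chromosome 2 from 43886224 to 43996226), was the most counted of the 10, with 3900 to 4932 counts per library. It had 234.7, 229.7, 235.8 and 231.9 CPM in ethanol and 231.5, 233.7, 227.1 and 224.1 CPM in O/A. Its log2 fold change of -0.02 (95% confidence interval -0.08 to 0.03, adjusted p = 0.474 from the same test) was the nearest to 0 of the 10. SLIRP, its small partner (ENSG00000119705, chromosome 14 from 77708071 to 77761104), had 34.7, 31.8, 31.7 and 30.2 CPM in ethanol and 29.9, 29.9, 30.0 and 30.3 CPM in O/A. The groups overlapped only at ethanol replicate 4, and the log2 fold change was -0.10 (95% confidence interval -0.20 to 0.01, adjusted p = 0.119 from the same test). SLIRP shares 118 exonic bases with SNW1 on the opposite strand, and whether HTSeq used strand is not given in the sources used here, so reads from that stretch cannot be told apart. SLIRP also shares 271 exonic bases with C14orf178 on the same strand, which held 1 to 3 counts per library.

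SUPV3L1, the RNA helicase of the degradation complex (ENSG00000156502, chromosome 10 from 69180234 to 69209099), had 34.8, 31.7, 32.9 and 33.2 CPM in ethanol and 32.7, 33.2, 31.4 and 30.0 CPM in O/A. PNPT1, the polynucleotide phosphorylase that digests the unwound RNA (ENSG00000138035, chromosome 2 from 55634061 to 55693863), had 75.7, 77.6, 80.4 and 74.1 CPM in ethanol and 76.0, 76.2, 73.2 and 71.9 CPM in O/A. The groups overlapped for both genes. The log2 fold changes were -0.06 for SUPV3L1 (95% confidence interval -0.16 to 0.05) and -0.05 for PNPT1 (-0.12 to 0.03), with adjusted p = 0.356 and adjusted p = 0.281 in the edgeR fit.

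Counts per library were 375 to 1839 for the genes other than POLRMT and LRPPRC. Counted over the 10, 5 genes had every O/A library below every ethanol library, where 24.8% of all genes tested did. Summed over the 10 genes, the level was 709 ± 13.6 CPM in ethanol and 613 ± 10.1 CPM in O/A (SD, n = 4 libraries each).

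Genes of the same complex or step were also compared as ratios within a library, where scaling cancels. The size of such a ratio depends on the gene lengths used, while its change between conditions does not. The FPKM ratio of TRMT10C to HSD17B10 was 2.29, 2.22, 2.15 and 2.02 in ethanol and 1.14, 1.02, 1.18 and 1.02 in O/A, 0.50 times that in ethanol. Per kilobase of the GENCODE canonical transcript, TRMT10C instead lay below HSD17B10, at 34.1 against 44.8 in ethanol and 15.6 against 41.1 in O/A. The ratio of TFAM to POLRMT was 2.71, 2.60, 2.82 and 2.79 in ethanol and 4.68, 4.84, 4.97 and 4.89 in O/A, 1.77 times that in ethanol. The groups were apart for both ratios (exact permutation test, two-sided, p = 0.0286 each, the smallest possible, and 0.0571 adjusted over the 4 ratios computed, which misses 0.05). The ratio of LRPPRC to SLIRP ranged from 0.512 to 0.582 in ethanol and from 0.561 to 0.594 in O/A, and that of SUPV3L1 to PNPT1 from 0.505 to 0.568 and from 0.516 to 0.538. Both pairs overlapped between conditions, with log2 differences of 0.07 (exact permutation p = 0.143) and -0.01 (exact permutation p = 0.83), and adjusted values of 0.190 and 0.83 over the 4 ratios.

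Per length, TRMT10C had the highest deposited FPKM in ethanol, 32.9 ± 1.01 (SD, n = 4), and in O/A, 15.1 ± 0.332, where it came nearer to the others. POLRMT had the lowest, 5.78 ± 0.224 FPKM in ethanol and 2.91 ± 0.113 in O/A. Between them in ethanol came TFB2M (16.2), TFAM (15.8), HSD17B10 (15.2), PNPT1 (14.8), ELAC2 (13.3), SLIRP (12.4), SUPV3L1 (7.85) and LRPPRC (6.81 FPKM). Neighbours from TFB2M to PNPT1 overlapped in their ranges over libraries, as did ELAC2 and SLIRP. The exonic size behind FPKM counts every annotated exon. For SLIRP (2631 bases), LRPPRC (34689 bases) and HSD17B10 (2822 bases) it was 7.0, 5.25 and 2.96 times the length of the GENCODE canonical transcript. On the FPKM scale but per kilobase of the canonical transcript, an alternative chosen after the sizes were seen, SLIRP was the highest at 86.7 ± 4.93 in ethanol and LRPPRC reached 35.8 ± 0.487, above TRMT10C at 34.1 ± 1.05 (SD, n = 4). The counts behind this scale still came from every annotated exon, so it can overstate genes whose exonic size is much larger than the canonical transcript. On that scale TRMT10C, at 15.6 ± 0.345 in O/A, ranked 6 of the 10, its range overlapping that of PNPT1 just above it, against 4 in ethanol, where it overlapped neither neighbour, and POLRMT was again the lowest at 7.75 ± 0.301 and 3.90 ± 0.147.

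Of the other genes of mitochondrial transcription, RNA maturation and DNA upkeep, all 58 listed were tested, and 21 were called lower and 6 higher in O/A (36.2% and 10.3%, beside 18.9% and 15.8% of all genes tested). Their median log2 fold change was -0.17. The lists were chosen with earlier results of these data known, and the part of this choice in the shares was not tested. In the list of RNA processing and the FASTK family, RNA-binding proteins of mitochondria, all 10 genes had an adjusted p of at most 0.05 and a negative value, and 7 were called lower. Of all genes tested, 53.7% had such an adjusted p in either direction, 50.1% had a negative value and 18.9% were called lower. The share of all genes with both such an adjusted p and a negative value is not given here. FASTKD3 (-0.71), PTCD2 (-0.66) and FASTKD1 (-0.59) fell most there. The list headed transcription elongation and termination holds 6 genes and includes the MTERF genes whatever the role of each. In it 2 were called lower, MTERF1 (-0.49), a termination factor, and MTERF4 (-0.30), which was within the threshold at -0.24 without O/A replicate 2. Among 5 genes of polyadenylation and decay, MTPAP (-0.41), the mitochondrial poly(A) polymerase, and PDE12 (-0.37), which removes poly(A), fell, and LACTB2, an endoribonuclease, was called higher, by 0.25, a call lost in 8 of 16 alternatives.

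Of the remaining lists, those of tRNA maturation and of the nucleoid had calls in both directions. Of 15 tRNA maturation genes, MTO1 (0.47), a wobble uridine modifier, NSUN3 (0.35) and THG1L (0.32) rose, and OSGEPL1 (-0.73), TRMT5 (-0.62) and GTPBP3 (-0.61) fell, with 9 not called. GTPBP3 and MTO1 act together on the same base, and they changed in opposite directions. Of 12 genes of rRNA modification and assembly, 4 were called lower, led by MRM1 (-1.07), TRUB2 (-0.50) and TFB1M (-0.45), the rRNA methyltransferase related to TFB2M. MRM2 had the highest value of that list, 0.90, on 2 to 16 counts per library and was not called. Of 10 nucleoid and mtDNA replication genes, TWNK (-0.79), the replicative helicase, POLG2 (-0.55) and MGME1 (-0.40) fell, and LONP1 (0.41), a matrix protease that degrades TFAM, and RNASEH1 (0.31) rose. These single values are log2 fold changes from the same edgeR fit, each with an adjusted p of 0.0031 or less unless said not to be called. The listed genes whose values over the 8 libraries lay closest to those of TRMT10C, the member that fell most, were MRM1 and TWNK, with root mean square differences of 0.14 and 0.16 in centred log2 CPM. Closest to LRPPRC, the member with the highest fold change, were SSBP1 and METTL15, at 0.04 each. This measure largely follows the fold change. MRM1 and TWNK also had the lowest log2 fold changes of the 58 genes. SSBP1 (-0.05) and METTL15 (0.001), like LRPPRC, were not called.

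**Figure D3:**
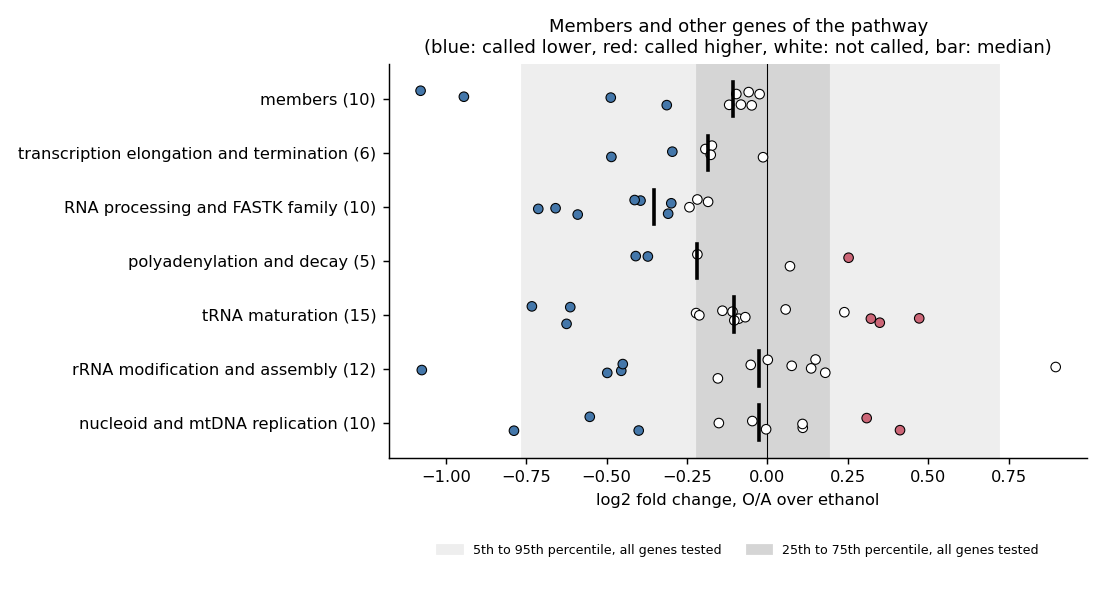
Log2 fold change (horizontal axis) of the 10 genes and of the 58 other genes by list, 1 point per gene, blue where called lower, red where called higher and white where not called, with the median of each list as a bar and the spread of all genes tested as grey bands. The RNA processing and FASTK list has all 10 genes below 0 (median -0.35), while the rRNA and nucleoid lists have medians near 0 (-0.03 each).

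Among the RNAs on which these proteins act, MT-ND6, the messenger RNA of the light strand, had between 1346 and 1891 counts under ethanol and between 159 and 237 under O/A (log2 fold change -2.89), while 8 of 12 heavy-strand messenger RNAs were not called, 2 were called higher and 2 lower, between -0.32 for MT-ND3 and 0.30 for MT-ND4. The rRNA genes MT-RNR1 (0.51) and MT-RNR2 (0.35) were called higher. All libraries were selected for poly(A), so for MT-ND6, the other messenger RNAs and the rRNAs, amount and capture by poly(A) cannot be told apart. Reads from opposite strands cannot be told apart either where it is not known whether strand was used in counting.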

How the data were processed

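Oligo(dT)-selected mRNA of 8 N/TERT-1 libraries was sequenced as paired-end reads. Alignment by the authors was with HISAT2 2.0.1 on GRCh38.p13, and they made the counts per Ensembl gene with HTSeq 0.6.1, and these raw counts were deposited. The strand setting and Ensembl release are not given in the sources used here. The deposited FPKM values were checked and lie within 0.005 of count over exonic size and library total. A deposited table of the authors' DESeq2 comparison (mean normalized signal, fold change, log2 fold change with its standard error, Wald statistic, p-value and adjusted p-value) was not used. Groups and replicate numbers came from the labels.

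Here edgeR 4.0.16 (R 4.3.3) tested the counts by robust quasi-likelihood after TMM scaling, with Benjamini-Hochberg adjustment over the 14893 genes that reached 10 counts in 4 or more libraries. Standard errors were taken as the log2 fold change over the root of the F statistic. The thresholds follow the study's own (adjusted p 0.05, log2 fold change 0.25). Alternatives were DESeq2 1.42.0, limma 3.58.1 on log2(FPKM + 0.1), on log2(FPKM + 1) and on quantile-normalized values, median-ratio and upper-quartile scaling, no filter, a replicate block, other fold thresholds and each library left out. On data simulated from these libraries, with 200 of 14893 genes changed, edgeR recovered 174 with 11 false calls and DESeq2 167 with 5. In the libraries themselves 5165 genes were called, and recovery with that many genes changed was not tested.

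Members and lists were chosen with earlier results of these data known. Named beside the 10 members are, in each other list, up to 3 called genes with the largest rise and 3 with the largest fall, and the 2 listed genes nearest in pattern to the members with the highest and lowest fold change. Other genes named were singled out for their role or because they set a range. Gene loci, canonical transcripts and overlaps came from GENCODE v44, whose start and end equalled the deposited ones for all 10, and promoter windows from RefSeq (GRCh38.p14), which held all 10. Libraries of one condition differed by more than sampling noise (chi-square per degree of freedom 1.76 to 5.74 over 11727 genes, and 52.9 to 64.0 between conditions), so none was a copy of another.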

Additional observations from a re-analysis of the deposited data

Results flagged for a closer look

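In 20 groups of 4 libraries (10 genes in 2 conditions), 1 library stood apart from its group by the gap to its nearest neighbour, and chance gives about 1 in 20. TFB2M had 24.7 TMM-scaled CPM in ethanol replicate 4, against 29.2 to 30.1 in the other ethanol libraries, a gap of 0.844 of the range of its group. TFB2M had a log2 fold change of -0.38 when this library was left out, against -0.31 with it. No cause was tested.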

How the results depend on the processing

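Each of the 10 genes kept its direction and its side of the call in all 16 alternatives that changed the scaling, test, filter, block or libraries. The log2 fold changes ranged from -1.12 to -1.06 for TRMT10C, -0.98 to -0.80 for POLRMT, -0.53 to -0.47 for ELAC2, -0.38 to -0.28 for TFB2M and -0.16 to -0.10 for TFAM. With an absolute log2 fold change above 1, 1 of the 10 was called lower (TRMT10C). Of the 58 other genes, 10 were called higher and 32 lower without a fold threshold, 0 and 1 above 1, and 2 were called higher on log2(FPKM + 1), and the cause was not tested. The median of the 10 genes was -0.14 under upper-quartile scaling, -0.15 on log2(FPKM + 0.1) and -0.14 on log2(FPKM + 1). Under these the median of all genes was -0.03, -0.04 and -0.03, and the share of higher calls among all called genes went from 45.5% to 39.6%, 38.0% and 38.6%. Of the other genes named, LACTB2 lost its call without ethanol replicate 1 (0.21) or 4 (0.24) or O/A replicate 1 (0.22) or 2 (0.25, just within the threshold), and NSUN3 (0.19), THG1L (0.24), RNASEH1 (0.24) and MTERF4 (-0.23) lost theirs on log2(FPKM + 1). An adjusted p of at most 0.05 was also reached by LRPPRC under quantile normalization (limma, 0.0022, log2 fold change -0.09), by SLIRP and HSD17B10 under upper-quartile scaling and both FPKM fits (lowest 0.012 and 0.035) and by PNPT1 under quantile normalization and both FPKM fits (lowest 0.0376), all within the fold threshold. Same-numbered libraries deviated together little (correlations 0.039, -0.002, -0.023 and 0.068). Replicate 4 of each condition still correlated best with its own number, and so did ethanol replicate 1 but not O/A replicate 1. Whether same-numbered libraries came from the same experiment cannot be told from these correlations, and the main fit did not pair them. With the replicate block 4 of the 10 were called lower and 5160 genes in all, against 5165. At 166 to 282 counts per library, as for PRORP and POLRMT in O/A, small changes are measured imprecisely.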
